A study of Arabidopsis thaliana with 48 samples.

Results

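Seedlings labelled as the Arabidopsis thaliana triple mutant atx4/5;jmj24 were compared with wild-type Col-0 seedlings in long days (LD), with 2 RNA-seq libraries a side, which are 4 of the 48 libraries of the series. The libraries were chosen by their labels alone. The mutant genotype is given as atx4(-/-);atx5(-/-);jmj24(-/-), without the position or type of the alleles. Whole seedlings were 11 days old and had 16 h of light and 8 h of dark on Murashige and Skoog plates. The same pair of genotypes in short days (SD, 8 h of light and 16 h of dark, 14 days old) was used only to show where the mutant differed. The LD libraries labelled ino80 and nfrkb1/2/3 were used in the same way, and all these groups had 2 libraries each. A second set of SD libraries of both genotypes, also 2 each, came from a separate table, and no age was recorded for it. ino80 is a mutant of the ATPase subunit of the INO80 chromatin remodeler and nfrkb1/2/3 is a triple mutant of NFRKB homologues, which are subunits of that complex. Nothing in the labels says whether replicate libraries came from separate plates or batches of seedlings, so p-values measure only the spread between libraries. That spread was estimated over a whole table and not from the compared groups alone. In whole seedlings, fewer cells of a type and less RNA per cell cannot be told apart.

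ATX4 and ATX5 are Trithorax-like methyltransferases of histone H3 lysine 4, and JMJ24 is a JmjC domain protein that has been linked to silencing through DNA methylation. Methylated lysine 4 of histone H3 marks the start of transcribed genes and is associated with their activity, and INO80 moves nucleosomes and acts on the histone variant H2A.Z. In seedlings, chromatin factors of this kind are known for effects on flowering time, light responses and hormone responses.

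Values are normalized reads per gene. They were taken as adjusted by the authors to a common library size and not corrected for gene length, so levels are compared within a gene. The exact step is not given in the sources used here. Totals of the 4 libraries were 21721839 and 21466782 in the labelled mutant and 22641975 and 22426969 in wild type, within the range of 18867187 to 22653356 over the 36 libraries of the same table. By the number of genes with large differences, the replicates of the labelled mutant stood furthest apart. Among genes with a mean of at least 30 reads, 221 differed by at least 2-fold between the repeats of the labelled mutant, against 57 in wild type and 13 to 184 in the 17 other groups. The correlation of log2 values between its repeats, 0.987, was near that of the other groups, at 0.986 to 0.989. Of these 221, 162 were higher in repeat 1 and 59 in repeat 2. RD26, a stress-induced NAC factor, had 3614 reads in repeat 1 and 837 in repeat 2, and PUB19, a ubiquitin ligase of the drought response, had 1829.6 and 147. The iron deficiency factor BHLH38 had 31.0 and 89.7 reads in the labelled mutant, but also 39.9 and 6.05 in wild type. Of the 122 genes named below that were called against wild type in LD, 45 missed the threshold without at least 1 of the 4 libraries. These are named beside their values, each with the highest adjusted p of the 4 refits and the library then left out. AT3G10020 and OLEO4, named below only for contrast, are not in these or later counts of named genes.

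The targeted genes check the labels. ATX4 (AT4G27910, chromosome 4) had 90.5 and 83.0 reads in the labelled mutant, against 342 and 311 in wild type, a log2 fold change of -1.90, with an SE of 0.0866 (limma's moderated test, adjusted p = 8.0e-13). JMJ24 (AT1G09060, chromosome 1) had 322 and 271 reads in the labelled mutant and 949 and 1043 in wild type, a log2 fold change of -1.75, with an SE of 0.0880 (adjusted p = 3.4e-12). Both were low in both mutant libraries, and the groups did not overlap. ATX5 (AT5G53430, chromosome 5) had 267 and 331 reads in the labelled mutant, against 341 and 353 in wild type, and its log2 fold change of -0.22 did not pass the threshold (SE 0.0972, adjusted p = 0.14). In SD, ATX5 was at 124 and 137 reads in the labelled mutant and at 283 and 311 in wild type. The effect on it differed between these LD and SD libraries by 0.96 on the log2 scale (adjusted p = 1.4e-04). In a second set of SD libraries, normalized in a separate table, ATX5 was at 390 and 339 reads in the labelled mutant and 334 and 269 in wild type. Its log2 fold change there was 0.28 and was not called (limma, adjusted p = 0.23), so the SD sets disagreed. The ATX5 transcript was not called lower in LD or in the second SD set, and the type of its allele is not given. The transcript level alone cannot decide the genotype, so the line is called the labelled mutant throughout. Of the 4 loci on each side of each targeted gene, 2 were called. The ATX4 neighbour AT4G27880 had a log2 fold change of -0.27 (adjusted p = 0.041) and RBOHB, an NADPH oxidase gene near JMJ24, of 0.45 (adjusted p = 0.046). Both calls were lost whichever library was left out, with adjusted p up to 0.26 without wild-type repeat 1 and 0.20 without wild-type repeat 2.

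**Figure D1:**
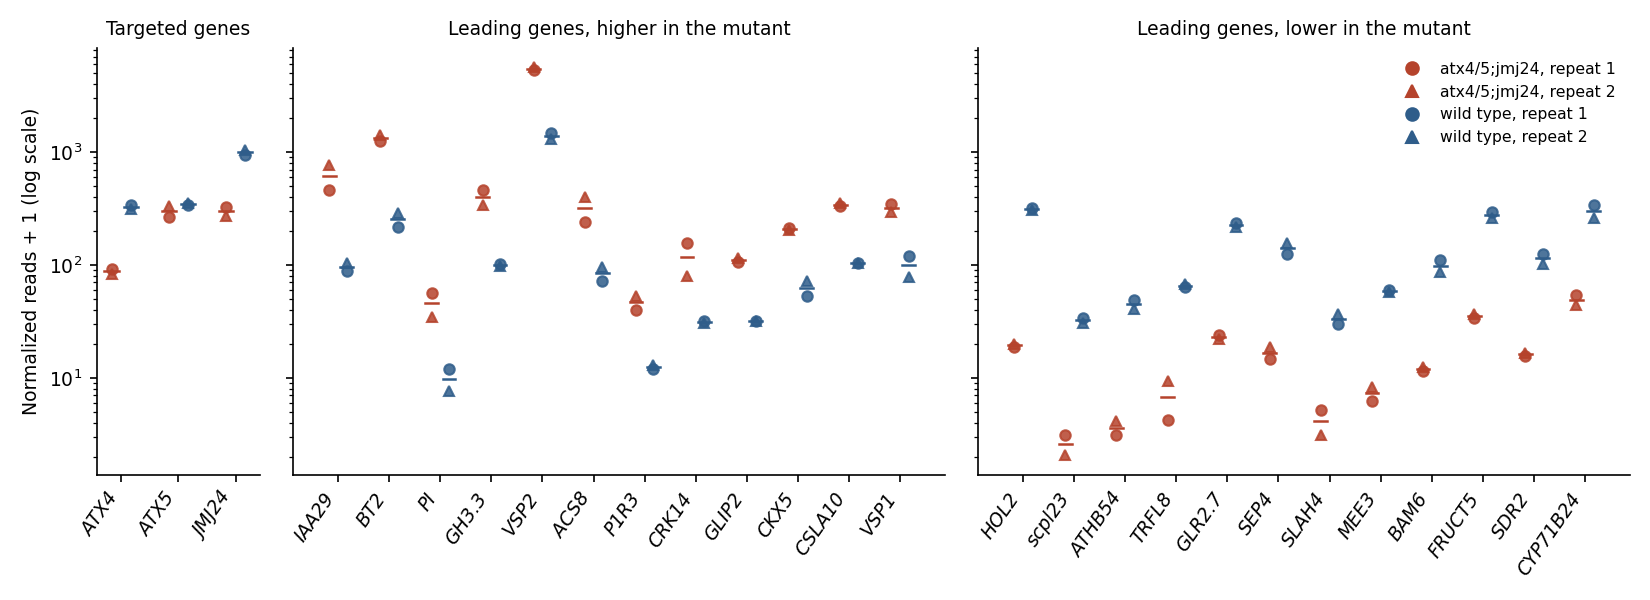
Normalized reads + 1 per library on a log axis for the targeted genes, the 12 leading higher genes and the 12 leading lower genes in LD, with circles for repeat 1, triangles for repeat 2 and a bar at the mean of each group (n = 2). ATX4 and JMJ24 lie below wild type in both libraries of the labelled mutant, ATX5 lies close to it, and HOL2 stands lowest against wild type at 17.9 and 18.9 reads, against 315 and 303.

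Of 25638 genes tested, 3409 were called at an adjusted p under 0.05, 1510 higher and 1899 lower in the labelled mutant. This is a background of 13.3% called, 5.89% higher and 7.41% lower, against which the gene lists are read, and the median log2 fold change over all genes was 0. The balance of directions depended on the scaling, since equal library totals, which moved that median by 0.038, gave 2252 higher and 1501 lower, and quantile normalization 1577 and 1863. At least 2-fold changes were more often lower than higher, with 586 and 279 genes. Genes with a mean under 10 reads in both groups made up 211 of the calls. The calls rest on a spread estimated from all 36 libraries, which can understate that of the labelled mutant, whose repeats differed 2-fold in the most genes. A fit of the 4 LD libraries alone called 0 of 23422 genes, with 5325 at an unadjusted p under 0.05, and 1081 calls, 433 higher and 648 lower, held without each of the 4 libraries with a fold that moved by under 1.5 times. By annotation, 3325 of 23743 protein-coding genes were called, against 50 of 1274 lncRNAs and 7 of 127 miRNA genes. Genes annotated only as ncRNA were called in 24 of 164 (14.6%), near the share of protein-coding genes (14.0%).

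The strongest losses were of single genes that fell to a small part of their wild-type level. HOL2 (AT2G43920), which makes methyl halides and thiocyanate methyl esters, had 17.9 and 18.9 reads in the labelled mutant, against 315 and 303 in wild type, a log2 fold change of -4.00, with an SE of 0.180 (adjusted p = 8.0e-13). This is 16.8 times lower than in wild type, and the replicates within each group lay close together. The genes flanking HOL2, chosen after its values were seen, did not share its loss. HOL1 had 3933 and 3600.4 reads in the labelled mutant and 4097 and 3870.3 in wild type, and HOL3 had 241 and 226, against 238 and 258, with neither called. GLR2.7, a glutamate receptor-like channel gene, had 23.1 and 21.0 reads in the labelled mutant and 233 and 216 in wild type (log2 fold change -3.29, SE 0.191, adjusted p = 3.8e-11). Its neighbours GLR2.8 and LAC2 were weakly expressed in all 4 libraries, at 2.13 to 18.8 reads, and were not called. FRUCT5, a cell wall invertase or fructan hydrolase by homology, had 32.7 and 35.7 reads in the labelled mutant and 291 and 259 in wild type (log2 fold change -2.97, SE 0.145, adjusted p = 2.5e-12). SEP4, a MADS factor of floral meristems and organs, had 13.7 and 17.8 reads in the labelled mutant, against 124 and 155 in wild type, with a log2 fold change of -3.07.

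The remaining leading lower genes were weaker in wild type but showed the same separation. The serine carboxypeptidase-like gene scpl23 had 2.1 and 1.07 reads in the labelled mutant and 32.9 and 29.7 in wild type, and the homeodomain-leucine zipper gene ATHB54 had 2.12 and 3.14, against 48.2 and 39.7. TRFL8, a gene of the telomere repeat binding factor-like family, had 3.22 and 8.34 reads in the labelled mutant and 62.7 and 66.9 in wild type. In none of these genes did the groups overlap, which their selection by fold and by calls without each library made likely. The log2 fold changes of the anion channel homologue SLAH4, the RADIALIS-like gene MEE3, the beta-amylase gene BAM6, the short-chain dehydrogenase gene SDR2 and the cytochrome P450 gene CYP71B24 were -3.04, -3.03, -3.03, -2.81 and -2.60. All 12 leading lower genes also had negative log2 fold changes in SD, between -1.23 for ATHB54 and -3.86 for SEP4, where ATHB54 was not called. Reads that a gene shares with an overlapping gene cannot be assigned without a stated strand setting, and scpl23, BAM6 and SDR2 overlap another locus in the annotation, as JMJ24, ATX5 and the cytokinin oxidase gene CKX5 do.

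The 12 leading higher genes were smaller in fold. IAA29, an auxin-induced Aux/IAA repressor that also responds to shade, had 459 and 767 reads in the labelled mutant, against 87.1 and 104 in wild type, a log2 fold change of 2.63, with an SE of 0.174 (adjusted p = 3.2e-10). BT2, a BTB and TAZ domain protein of the nitrate and sugar response, had 1242 and 1399 reads in the labelled mutant and 215 and 290.0 in wild type (log2 fold change 2.40, SE 0.325, adjusted p = 2.0e-05). PI, a floral organ identity factor, had 55.6 and 33.8 reads in the labelled mutant and 10.9 and 6.68 in wild type, with a log2 fold change of 2.21. The vegetative storage protein genes VSP2 and VSP1, targets of jasmonate, had log2 fold changes of 1.98 and 1.70. ACS8, an enzyme of ethylene synthesis, had 238 and 401 reads in the labelled mutant and 71.8 and 95.1 in wild type (log2 fold change 1.89). The others were GH3.3 (1.99), P1R3 (1.88), the receptor-like kinase gene CRK14 (1.83), the lipase gene GLIP2 (1.80), CKX5 (1.76) and CSLA10 (1.72), a cellulose synthase-like gene.

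Genes of DNA methylation were called in both directions, with 4 higher and 4 lower of 29 tested (13.8% each). The background was 5.89% higher and 7.41% lower, and the median log2 fold change of the list was 0.02. The losses lay mainly in the DNA glycosylases, which remove methylated cytosine. DML2 had 46.3 and 46.2 reads in the labelled mutant, against 273 and 275 in wild type, a log2 fold change of -2.54, with an SE of 0.169 (adjusted p = 3.6e-10). Of its flanking genes, chosen after its values were seen, EDA31 was not called, at 7.80 to 13.1 reads in these LD libraries. AT3G10020 was called higher, with 1755 and 1868 reads in the labelled mutant and 1082 and 1113 in wild type (log2 fold change 0.72, limma, adjusted p = 0.0046). DML3 had 67.6 and 101 reads in the labelled mutant and 175 and 176 in wild type (log2 fold change -1.08, adjusted p = 0.0015), and ROS1 had 584 and 618, against 902 and 884 (log2 fold change -0.57, adjusted p = 7.1e-05). The fourth member, DME, which acts in the female gametophyte, had 1433 and 1576 reads in the labelled mutant and 1437 and 1556 in wild type and was not called. In RNA-directed DNA methylation, IDN2, which binds RNA in that pathway, fell to 455 and 448 reads in the labelled mutant, against 825 and 773 in wild type (log2 fold change -0.82). NRPD1, the largest subunit of RNA polymerase IV, rose to 356 and 373 reads, against 182 and 195 in wild type (log2 fold change 0.95, adjusted p = 3.6e-06). The remodeler gene DRD1, the Argonaute gene AGO4 and the methylcytosine-binding factor gene VIM3 were called higher with 0.45, 0.23 and 0.32. The calls of DRD1, AGO4 and VIM3 were lost without single wild-type libraries, with adjusted p up to 0.15 without repeat 2 and 0.051 and 0.25 without repeat 1. None of the 5 DNA methyltransferase genes was called, and all 4 lower calls of the list held without each library.

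Among 38 other histone methylation genes, 3 were called higher and 3 lower, with a median of 0.02. These shares of 7.9% each were near the background of 5.89% higher and 7.41% lower. The H3 lysine 9 methyltransferase homologue SUVR5 had 331 and 342 reads in the labelled mutant, against 458 and 512 in wild type (log2 fold change -0.52, adjusted p = 0.0013), and it was the only call of this list that held without each library. CLF and SWN, the vegetative H3 lysine 27 methyltransferases, had log2 fold changes of 0.29 and -0.17. ATXR5, another H3 lysine 27 methyltransferase, had 0.35, the demethylase homologue LDL3 -0.28 and ASHH3, an H3 lysine 36 methyltransferase homologue, 0.26. The highest adjusted p was 0.18 for CLF without repeat 2 of the labelled mutant, 0.23 for LDL3 without its repeat 1, 0.22 for SWN without wild-type repeat 2, and 0.45 for ATXR5 and 0.23 for ASHH3 without wild-type repeat 1. Neither the 5 other H3 lysine 4 methyltransferases nor the 10 other JmjC demethylases had a call. ATX3, the closest relative of ATX4 and ATX5, had 251 and 329 reads in the labelled mutant and 306 and 316 in wild type. Of 12 genes of the INO80 and SWR1 complexes and H2A.Z, only ARP6, a SWR1 subunit, was called, with a log2 fold change of 0.23 (adjusted p = 0.014), and this call was lost without repeat 2 of the labelled mutant (adjusted p = 0.15) and without either wild-type library.

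Many auxin genes rose. Of 108 tested, 38 were called higher (35.2%, against the background of 5.89%) and 1 lower, with a median log2 fold change of 0.16. Without repeat 1 of the labelled mutant, 34 were called higher and 4 lower, without repeat 2, 25 and 2, and without wild-type repeat 1 or 2, 31 and 22 higher with 1 lower each. The promoters of 5 of them are shown because auxin response factors bind the TGTCTC and TGTCGG cores. Each window runs from 250 bases before to 50 after the annotated gene start in RefSeq's TAIR10.1, 5′ to 3′ on the gene's strand, and 4 motifs were searched on either strand and put in capitals. They were both of these cores, the G-box, which is bound by light-signalling factors and reads CACGTG, and the evening element of clock-controlled genes, which reads AAAATATCT. IAA29 lies at chr4:15583082-15583381 (+), IAA19 at chr3:5263751-5264050 (+), IAA1 at chr4:8360746-8361045 (+), GH3.3 at chr2:9866513-9866812 (-) and SAUR22 at chr5:5975038-5975337 (-).
IAA29: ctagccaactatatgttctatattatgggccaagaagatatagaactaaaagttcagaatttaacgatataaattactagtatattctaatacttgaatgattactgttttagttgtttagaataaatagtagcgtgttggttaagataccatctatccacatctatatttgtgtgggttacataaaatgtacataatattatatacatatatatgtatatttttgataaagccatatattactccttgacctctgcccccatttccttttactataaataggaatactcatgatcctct
IAA19: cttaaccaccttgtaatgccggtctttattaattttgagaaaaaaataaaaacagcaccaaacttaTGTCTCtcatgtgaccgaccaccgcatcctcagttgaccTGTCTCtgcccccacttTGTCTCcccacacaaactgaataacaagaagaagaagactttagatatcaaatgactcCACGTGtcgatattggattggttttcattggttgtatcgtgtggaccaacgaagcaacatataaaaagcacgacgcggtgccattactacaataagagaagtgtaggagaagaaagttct
IAA1: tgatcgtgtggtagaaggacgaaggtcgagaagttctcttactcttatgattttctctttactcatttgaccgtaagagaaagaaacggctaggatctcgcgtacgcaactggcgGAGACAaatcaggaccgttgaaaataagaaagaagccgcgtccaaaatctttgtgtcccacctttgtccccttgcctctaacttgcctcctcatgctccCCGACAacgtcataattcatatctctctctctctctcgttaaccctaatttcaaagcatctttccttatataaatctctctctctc
GH3.3: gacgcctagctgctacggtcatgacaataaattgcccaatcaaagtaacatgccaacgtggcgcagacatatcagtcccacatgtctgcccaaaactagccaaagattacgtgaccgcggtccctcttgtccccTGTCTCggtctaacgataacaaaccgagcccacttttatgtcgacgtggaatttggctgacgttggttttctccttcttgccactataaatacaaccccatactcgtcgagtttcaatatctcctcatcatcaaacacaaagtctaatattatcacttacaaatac
SAUR22: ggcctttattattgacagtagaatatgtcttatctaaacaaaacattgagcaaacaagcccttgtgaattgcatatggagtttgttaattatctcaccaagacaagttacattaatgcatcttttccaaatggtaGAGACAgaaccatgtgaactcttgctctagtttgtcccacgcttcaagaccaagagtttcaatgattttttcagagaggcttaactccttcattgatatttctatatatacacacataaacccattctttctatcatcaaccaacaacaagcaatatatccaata
IAA19 holds TGTCTC at 184, 145 and 128 bases before the start and a G-box at 70. IAA1 holds GAGACA, the reverse complement of TGTCTC, at 135 bases before the start and CCGACA, that of TGTCGG, at 36. GH3.3 holds TGTCTC at 116 and SAUR22 GAGACA at 115 bases before the start, and the IAA29 window holds none of these letters. The windows were picked after the matches were seen. Over the 38 auxin genes called higher, 12 windows (31.6%) held TGTCTC and 5 (13.2%) TGTCGG. Over 23742 of the 23743 protein-coding genes tested, the shares were 14.1% and 5.37%. Among 1485 promoters of genes called higher, 76 (5.12%) held the evening element and 179 (12.1%) the G-box, against 1.90% and 9.62% of 1839 promoters of genes called lower and 2.92% and 8.38% of all. These are matches of letters only.

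The primary response genes carried most of the auxin calls. Among the SAUR genes, which promote cell elongation, 18 of 26 were called higher, none lower, with a median log2 fold change of 0.76. SAUR22 had 291 and 339 reads in the labelled mutant, against 127 and 112 in wild type (log2 fold change 1.39, SE 0.170, adjusted p = 5.0e-06), and SAUR29 had 149 and 149, against 69.9 and 48.7 (1.34). SAUR genes lie in tandem arrays of near-identical copies, so the split of reads among them is uncertain. The Aux/IAA repressors had 11 of 28 called higher and 1 lower. IAA1 had 879 and 759 reads in the labelled mutant and 351 and 326 in wild type (log2 fold change 1.27, adjusted p = 1.2e-06), and IAA19 had 202 and 261, against 116 and 107 (1.04). IAA5 had 149 and 62.6 reads in the labelled mutant and 23.9 and 11.2 in wild type, a log2 fold change of 2.48 that ranged from 1.86 to 3.10 when single libraries were left out. IAA28, which acts in lateral root formation, went the other way with 468 and 446 reads in the labelled mutant and 609 and 645 in wild type (log2 fold change -0.45).

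In the other roles, calls were fewer. Of the conjugating GH3 enzymes, GH3.3 had 464 and 339 reads in the labelled mutant, against 101 and 96.6 in wild type (log2 fold change 1.99, SE 0.335, adjusted p = 2.3e-04), and GH3.6 rose by 0.81. Of the 10 synthesis genes, the YUCCA monooxygenases YUC9 and YUC2 rose, YUC9 to 464 and 431 reads in the labelled mutant, against 204 and 239.9 in wild type (log2 fold change 1.01), and YUC2 by 0.54. Of the 13 transport genes, the efflux carrier PIN3 rose by 0.57 and the influx carrier AUX1 by 0.25, and neither call held without repeat 2 of the labelled mutant (adjusted p = 0.11 and 0.14). ARF3 and ARF18 rose by 0.57 and 0.53 among the 14 response factors. The calls of YUC2 and ARF18 were also lost without repeat 2 of the labelled mutant (adjusted p = 0.33 and 0.17), and that of GH3.6 without wild-type repeat 2 (adjusted p = 0.12). None of the 5 receptor genes was called. HAT2, an auxin-induced homeodomain gene, had 1237 and 1487 reads in the labelled mutant, against 795 and 735 in wild type (log2 fold change 0.83).

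Many jasmonate genes rose too, and fewer did so without repeat 1 of the labelled mutant. Of 53 tested, 20 were called higher (37.7%, against the background of 5.89%) and 1 lower, with a median of 0.54. Without repeat 1 of the labelled mutant, 10 were called higher and the median was 0.08. Without its repeat 2, 25 were called higher and the median was 1.00, and without wild-type repeat 1 or 2, 14 and 13 were higher. Over the list, the median difference of repeat 2 minus repeat 1 was -0.63 on the log2 scale in the labelled mutant and -0.02 in wild type. The part of this library difference in the list's calls was measured only by leaving the libraries out.

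Synthesis genes, which turn linolenic acid into jasmonate, had 10 of 13 called higher and a median of 0.94. AOC2, an allene oxide cyclase, had 12834 and 8177 reads in the labelled mutant, against 4016 and 3899.8 in wild type (log2 fold change 1.37, SE 0.194, adjusted p = 3.3e-05). AOS, the allene oxide synthase, had 12452 and 8058 in the labelled mutant and 4979 and 5223 in wild type (0.97), and both repeats lay above wild type in both genes. The lipoxygenase gene LOX4 shows the uneven repeats, with 1612 and 384 reads in the labelled mutant, against 155 and 207 in wild type. Its log2 fold change of 2.13 (adjusted p = 0.0016) ranged from 1.10 to 3.17 when single libraries were left out, and it was not called without repeat 1 of the labelled mutant (adjusted p = 0.078). LOX3 had 1888 and 484 reads in the labelled mutant and 315 and 399.8 in wild type (1.43), and OPCL1, a CoA ligase of the pathway, had 3559 and 1552, against 876 and 1039.6 (1.30). Of the 13 JAZ repressors, 6 were called higher. JAZ6 had 3591 and 2519 reads in the labelled mutant and 1249 and 1172 in wild type (1.31, adjusted p = 2.6e-05), while JAZ9 had 4753 and 1091, against 745 and 687 (1.67), and JAZ5 205 and 33.6, against 24.3 and 31.7 (1.55). Without repeat 1 of the labelled mutant the log2 fold changes were 0.45 for LOX3, 0.70 for OPCL1, 0.61 for JAZ9 and 0.26 for JAZ5, and only OPCL1 was still called (adjusted p = 0.019, against 0.28, 0.30 and 0.79 for LOX3, JAZ9 and JAZ5).

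Of the 13 wound and defence targets of the pathway, 3 were called higher, none lower. VSP2 had 5320.5 and 5637 reads in the labelled mutant, against 1485 and 1289.8 in wild type (log2 fold change 1.98, SE 0.245, adjusted p = 5.5e-06). VSP1 had 343 and 292 reads in the labelled mutant and 120.2 and 77.5 in wild type, and the myrosinase-binding protein gene MBP2 had 134 and 184, against 60.3 and 50.7 (1.49). Of the 9 transcription factors only JAM2, a bHLH repressor of the response, was called, with 604 and 547, against 362 and 351 (0.69). In these 4 genes the groups did not overlap and the calls held without each library. VSP2 and VSP1 were chosen as leading genes by such calls, so this was fixed for them, and a call makes separate groups likely. CYP94B3, which inactivates jasmonoyl-isoleucine, was the only lower call, at -0.55, lost whichever library was left out (adjusted p up to 0.27 without wild-type repeat 1), and the receptor gene COI1 was not called at -0.12. MYC2, the main transcription factor of the pathway, is listed at 0 in every library and was not tested.

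**Figure D2:**
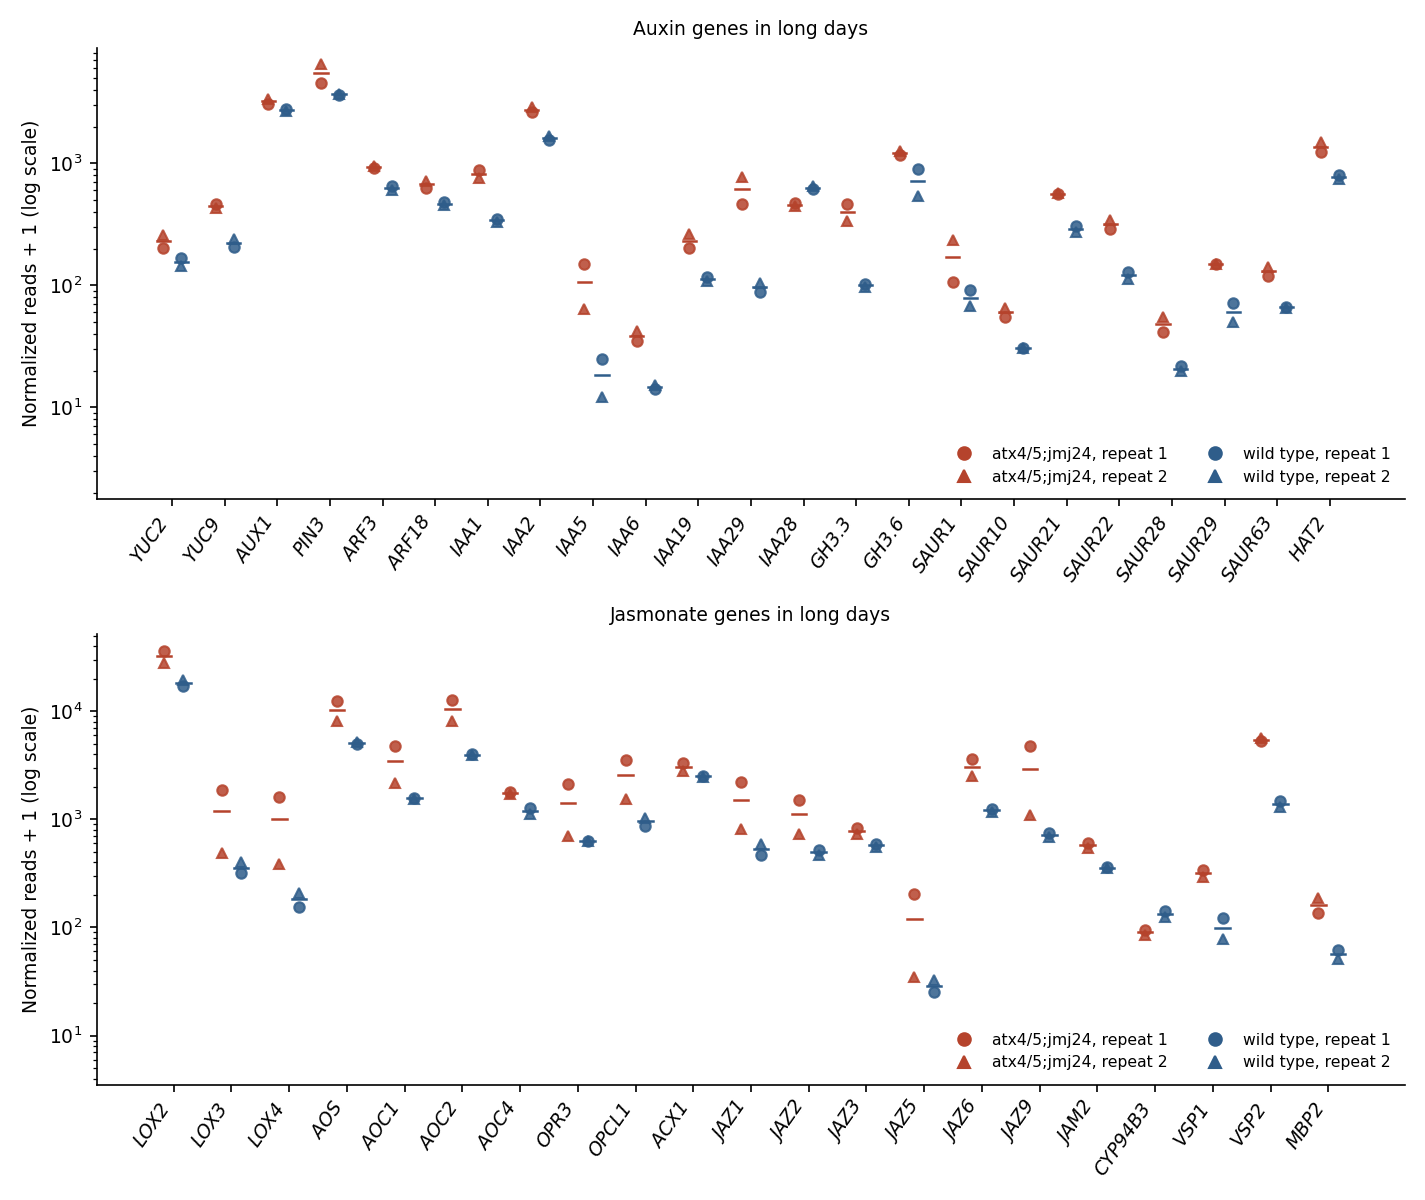
Normalized reads + 1 per library on a log axis for auxin genes (top) and jasmonate genes (bottom) in LD, with circles for repeat 1, triangles for repeat 2 and a bar at the mean of each group (n = 2). Most auxin genes lie above wild type in both repeats of the labelled mutant, while LOX3, LOX4, JAZ5 and JAZ9 lie far higher in repeat 1 than in repeat 2.

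Light and shade genes split by role, with 12 called higher (20.7%) and 9 lower (15.5%) of 58, against the background of 5.89% and 7.41%. Of the 13 shade response genes 7 were called higher, none lower, with a median of 0.64, and 8 were higher without repeat 1 of the labelled mutant. ATHB-2, a homeodomain factor and classic shade marker, had 3795 and 4394 reads in the labelled mutant, against 1702 and 2349 in wild type (log2 fold change 1.03, SE 0.145, adjusted p = 3.0e-05). ATHB-4 had 331 and 338 in the labelled mutant and 93.4 and 171 in wild type (1.40), HAT3 had 1119 and 1042, against 442 and 488 (1.21), and PRE1, a helix-loop-helix promoter of elongation, had 453 and 573, against 188 and 194 (1.41). CKX5, which breaks down cytokinin, had 214 and 204 reads in the labelled mutant and 52.0 and 71.0 in wild type. All 5 held without each library, which the choice of leading genes had fixed for CKX5. None of the 6 growth-regulating PIF factors was called higher, with PIF4 and PIF5 at 0.10 and 0.03, and PIF7 fell to 583 and 785 reads in the labelled mutant, against 987 and 926 in wild type (log2 fold change -0.50, adjusted p = 0.013), a call lost without repeat 1 of the labelled mutant (adjusted p = 0.25) and without wild-type repeat 1. The photoreceptor genes PHYA and PHYB each rose by 0.37.

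B-box genes, which act downstream of photoreceptors, had 4 of 15 called lower and 1 higher. BBX25 had 798 and 693 reads in the labelled mutant and 1309.8 and 1197 in wild type (log2 fold change -0.75), and BBX16 had 1093 and 1177, against 2102 and 1877 (-0.81). BBX32 had 63.7 and 20.3 reads in the labelled mutant, against 125 and 81.8 in wild type (-1.46), and without repeat 2 of the labelled mutant it was at -0.66 and not called (adjusted p = 0.32). HY5, a promoter of light-regulated growth, had -0.48, a call also lost without that library (adjusted p = 0.15).

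In the circadian clock, 4 of 11 morning genes were called lower and none higher. LHY had 814 and 809.5 reads in the labelled mutant, against 1543 and 1342 in wild type (log2 fold change -0.83, SE 0.0879, adjusted p = 7.9e-07), and LNK2 had 4746 and 5257, against 7434 and 7586 (-0.59). CCA1, the partner of LHY, had 1574 and 1554 in the labelled mutant and 2556 and 2127 in wild type (-0.58), and RVE8 had -0.36. The evening gene TOC1 rose to 538 and 591 reads in the labelled mutant, against 392 and 443 in wild type (0.44, adjusted p = 0.012). BOA rose by 1.08 at under 30 reads. The calls of CCA1, RVE8 and TOC1 were lost without wild-type repeat 1 (adjusted p = 0.088, 0.16 and 0.15), and that of BOA without repeat 1 of the labelled mutant (adjusted p = 0.26). Over the whole clock list, 3 of 25 were called higher (12%) and 5 lower (20%). The labels give no hour of harvest, so a shift in phase and a change in level cannot be told apart.

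Flowering genes had 2 of 53 called higher (3.77%) and 8 lower (15.1%). AGL72, a MADS gene of the SOC1 family, had 7.41 and 10.5 reads in the labelled mutant and is listed at 0 in both wild-type libraries, in both ino80 and in both nfrkb1/2/3 libraries. Its relative AGL71 was not called in the same comparison. The CONSTANS-like gene COL2 had 651 and 553 reads in the labelled mutant, against 1458 and 1076 in wild type (log2 fold change -1.06, SE 0.149, adjusted p = 2.9e-05). AGL19, a promoter of flowering, had 14.8 and 15.7 in the labelled mutant and 38.3 and 32.0 in wild type (-1.15), AGL42 had -1.04 and the FLC relative MAF4 -0.84. The floral repressors had no common direction, with TOE2 at 0.43 and SVP at -0.29. The calls of AGL42 and SVP were lost without repeats 1 and 2 of the labelled mutant in turn (adjusted p = 0.098 and 0.31), and that of MAF4 without wild-type repeat 1 (adjusted p = 0.34). FLC itself had 25.3 and 29.4 reads in the labelled mutant, against 21.9 and 17.7 in wild type, SOC1 423 and 563, against 569 and 548, and neither was called, while the florigen gene FT was at 3.28 reads or less in all 4 libraries.

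Part of the nuclear genes of photosynthesis fell, by small amounts. Of 45 tested, 12 were called lower (26.7%, against the background of 7.41%) and none higher, with a median log2 fold change of -0.22. Without each single library 3 to 5 were called, with medians between -0.21 and -0.25. With quantile normalization 3 were called and the median was -0.05. Of the 5 Rubisco genes 4 were called lower. RBCS3B had 64553 and 64652 reads in the labelled mutant, against 90072 and 94543 in wild type (log2 fold change -0.51, SE 0.106, adjusted p = 0.0017), and RBCS1B had 14469.5 and 13840.1, against 19503 and 18862 (-0.44). RCA, the Rubisco activase, had 145391 and 143946 in the labelled mutant and 215468 and 198146 in wild type (-0.51), a call lost whichever library was left out (adjusted p up to 0.15 without wild-type repeat 1). Copies of the small subunit are near-identical, so their separate values are uncertain. LHCB4.3, a minor antenna protein, had 361 and 298 reads in the labelled mutant, against 634 and 688 in wild type (-1.01). Summed over the list, the labelled mutant had 3168620 and 3167770 reads and wild type 3695730 and 3708140. In chlorophyll metabolism, 2 of 35 were called higher (5.71%) and 8 lower (22.9%). Among them were CLH2 (-1.54) and, higher, PORB (0.68), which makes chlorophyllide in the light. The call of CLH2 was lost without repeat 2 of the labelled mutant (adjusted p = 0.11) and that of PORB without wild-type repeat 1 (adjusted p = 0.14).

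**Figure D3:**
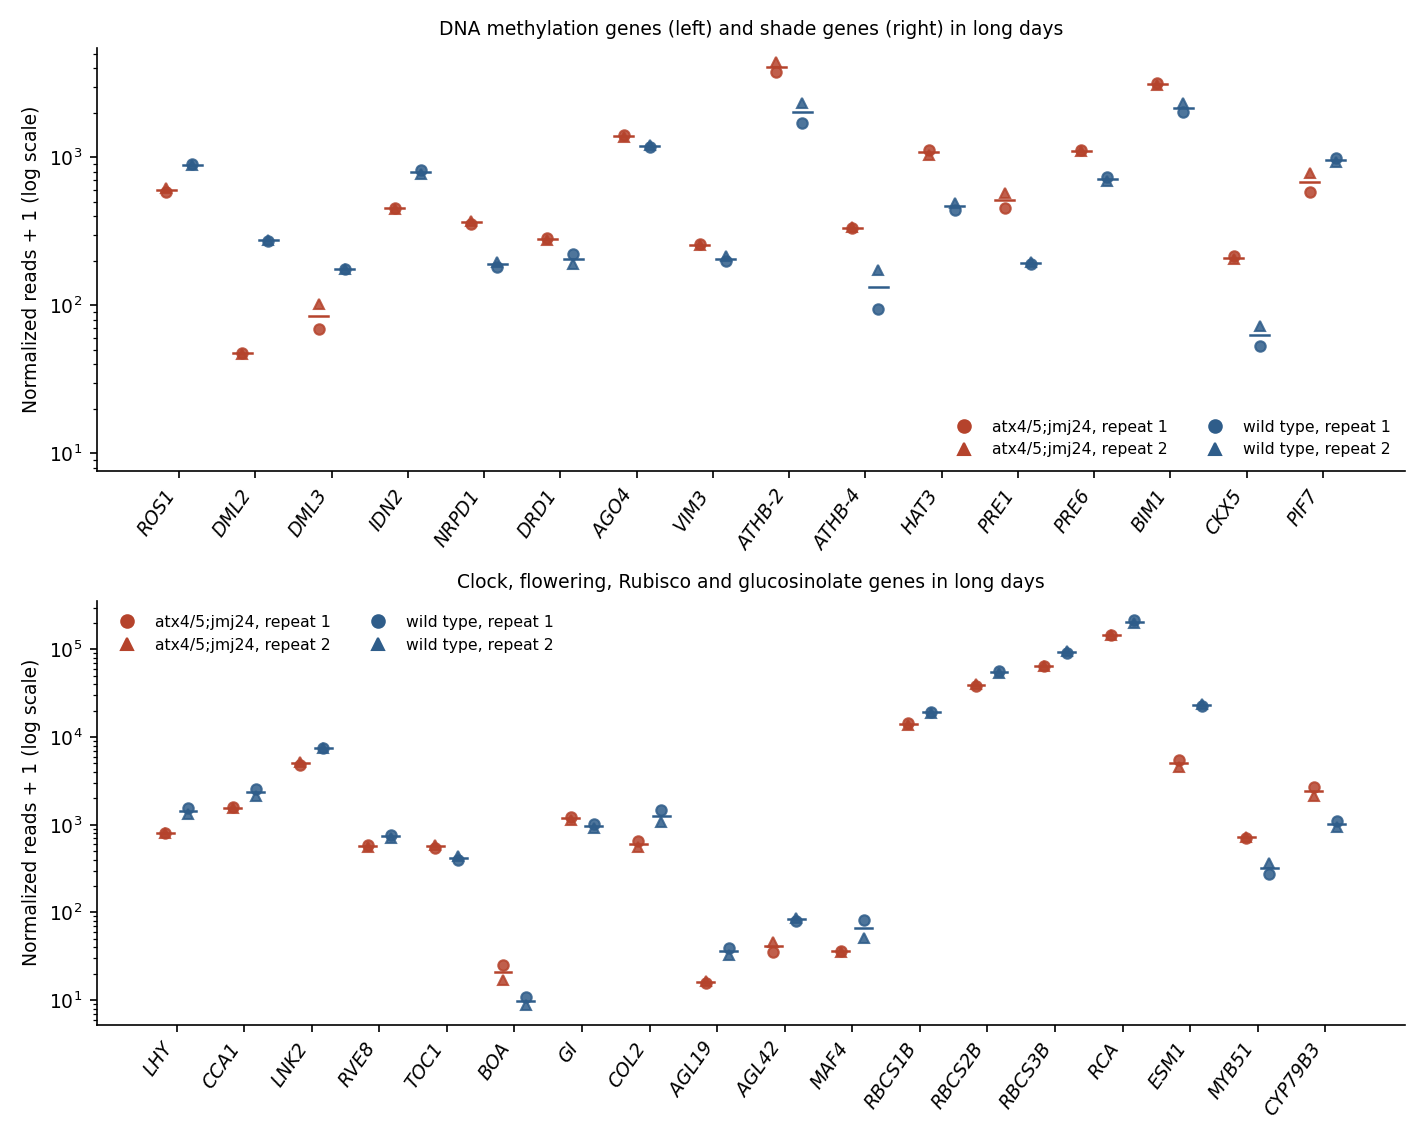
Normalized reads + 1 per library on a log axis for DNA methylation and shade genes (top) and clock, flowering, Rubisco and glucosinolate genes (bottom) in LD, with circles for repeat 1, triangles for repeat 2 and a bar at the mean of each group (n = 2). DML2 at 46.3 and 46.2 reads and ESM1 at 5516 and 4540.3 lie far below wild type, and the shade genes ATHB-2 to CKX5 lie above it.

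Glucosinolate genes, which make and break defence compounds of the cabbage family, had 7 of 43 called higher (16.3%) and 9 lower (20.9%). The specifier-type gene ESM1, which lowers nitrile formation, had 5516 and 4540.3 reads in the labelled mutant, against 22317 and 23914 in wild type (log2 fold change -2.21, SE 0.179, adjusted p = 1.1e-08). By role, 1 of 8 regulators was called higher and 3 lower, and of 12 core enzymes 3 in each direction. MYB51, a regulator of the indolic branch, was at 713 and 719 reads in the labelled mutant and 277 and 362 in wild type (1.17, adjusted p = 2.6e-05). CYP79B3, the first enzyme of the branch, had 2709 and 2115, against 1102 and 930.0 (1.24), and CYP81F2 had 569.5 and 329, against 134 and 146 (1.62). MYB34, another regulator of that branch, had -0.41, and of the aliphatic regulators MYB28 had -0.47 and MYB76 -1.12. The calls of CYP81F2 and MYB34 were lost without repeats 1 and 2 of the labelled mutant in turn (adjusted p = 0.090 and 0.31), and that of MYB76 without wild-type repeat 1 (adjusted p = 0.38).

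Nitrogen genes had 5 of 40 called higher (12.5%) and 4 lower (10%). Beside BT2, its paralog BT1 had 1886 and 669 reads in the labelled mutant, against 552 and 400.4 in wild type, with a log2 fold change of 1.26 that ranged from 0.51 to 2.00 when single libraries were left out and was not called without repeat 1 of the labelled mutant (adjusted p = 0.50). The nitrate transporter gene NRT2.1 had 251 and 191 in the labelled mutant and 74.2 and 107 in wild type (1.29, adjusted p = 0.022), a call lost without wild-type repeat 1 (adjusted p = 0.19) and without repeat 1 of the labelled mutant. ANR1, a MADS regulator of root growth in nitrate, fell to 111 and 103, against 207 and 256 (-1.10, adjusted p = 1.5e-05). Of 29 dark and sugar genes, 2 rose, the trehalose phosphate synthase-like genes TPS8 and TPS11 by 0.94 and 1.12, and 5 fell.

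Gibberellin, brassinosteroid and cytokinin genes had 10 of 61 called higher (16.4%) and 2 lower, among them GA20OX2, an enzyme of gibberellin synthesis, at 1.18, whose call was lost without repeat 2 of the labelled mutant (adjusted p = 0.16). Ethylene genes had 6 of 29 higher (20.7%) and 1 lower, with ACS4 at 106 and 253 reads in the labelled mutant and 50.2 and 34.3 in wild type (1.96). Salicylic acid and immunity genes had 7 of 38 higher, with WRKY53 at 1.95, SARD1 at 1.43 and WRKY18 at 1.30, and 3 lower, and of these calls only that of the receptor NPR3, at 0.62, held without each library. Without wild-type repeat 1, WRKY53 was at 1.15 and not called (adjusted p = 0.11), and SARD1 and WRKY18 were not called either (adjusted p = 0.074 and 0.15). Abscisic acid and cold genes had 4 of 56 in each direction (7.14%, against the background of 5.89% higher and 7.41% lower). Cell wall growth genes had 5 of 40 higher (12.5%) and 2 lower (5%). Iron and phosphate genes had 1 of 37 higher and 3 lower, led by NAS3, a nicotianamine synthase, at 289.7 and 155 reads in the labelled mutant, against 707 and 587 in wild type (-1.60). Heat shock genes had 2 of 30 higher, cell cycle genes 1 of 32 in each direction with the inhibitor KRP1 at -0.66, DNA damage genes 1 of 25 lower (GMI1 at -0.49, lost whichever library was left out, with adjusted p up to 0.30 without wild-type repeat 2), and flavonoid genes 0 of 25 by limma at an adjusted p under 0.05, with 6 at an unadjusted p under 0.05.

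Markers of other tissues were called at 13.0% to 22.2% of the genes tested, against the background of 13.3%. Of 23 root markers, 2 were called higher and 1 lower, of 16 senescence markers 1 and 2, of 18 floral organ markers 1 and 2 (PI higher, SEP4 and, at 2.18 reads or less, SEP2 lower, the last lost whichever library was left out, with adjusted p up to 0.26 without wild-type repeat 1), and of 18 seed markers 1 and 3 (16.7% lower, against 7.41%). Summed seed markers had 222 and 102 reads in the labelled mutant and 127 and 174 in wild type, and summed root markers 10926.5 and 12178.5, against 12989.8 and 11342.3, so the groups overlapped in both. The seed dormancy gene DOG1 had 11.7 and 17.8 reads in the labelled mutant, against 54.1 and 69.9 in wild type (-2.02, adjusted p = 2.0e-06). The seed marker called higher, the oleosin gene OLEO4, had 66.3 and 67.2 reads in the labelled mutant and 30.5 and 18.9 in wild type. Its log2 fold change was 1.44 (limma, adjusted p = 0.0042) and ranged from 1.10 to 1.77 when single libraries were left out. The call did not hold in every one of these refits.

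**Figure D4:**
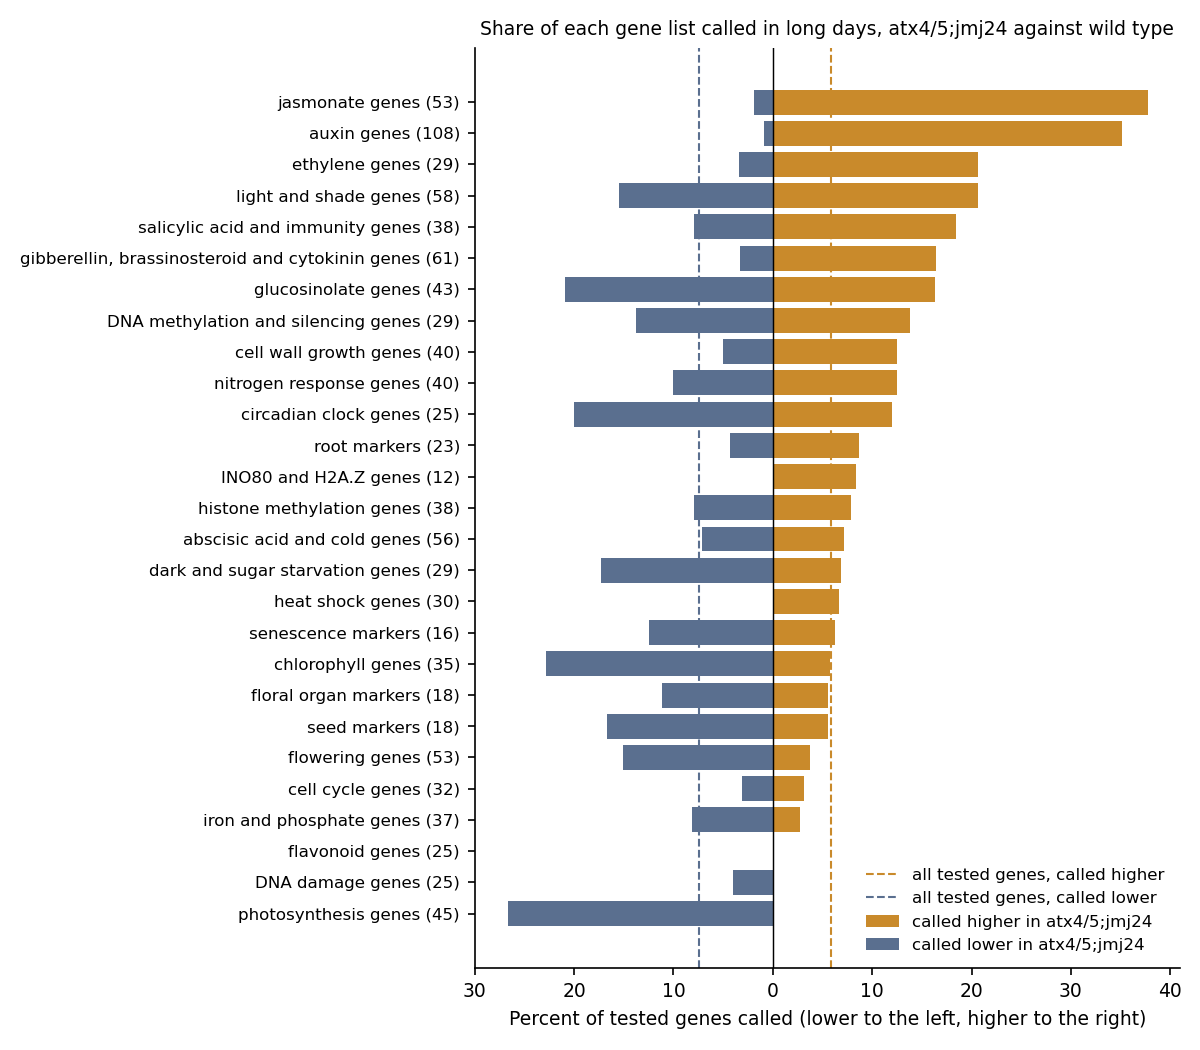
Share of the tested genes of each list other than the targeted genes that were called higher (right) or lower (left) in the labelled mutant in LD, as percent on the x axis, with the number tested in brackets and dashed lines at 5.89% and 7.41% for all tested genes. The auxin and jasmonate bars reach furthest to the right, and the photosynthesis genes reach furthest to the left with no higher call.

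Of the genes called in LD, most had the same sign in SD, in other libraries of both genotypes, where 27.2% of all genes tested were called (11.9% higher and 15.3% lower). Of the 1510 higher genes 77.3% were also above wild type in SD, 590 of them called, and 83 were called lower. Of the 1899 lower genes 85.2% were also below wild type in SD, 1140 of them called, and 50 were called higher. In the second set of SD libraries, normalized in a separate table and with calls in 4.08% of genes (1.79% higher and 2.29% lower), the shares were 78.4% and 86.8%. The difference between the LD and SD effects was itself called for 1863 genes (7.27% of those tested), 1089 with the higher effect in LD (4.25%) and 774 with the lower (3.02%). With equal library totals these were 662 and 1070, and with quantile normalization 763 and 793, so neither direction led under every scaling. The SD seedlings of the first set were 3 days older, and no age was recorded for the second set. The clock gene LHY had 1543 and 1342 reads in wild type in LD and 18314 and 17701 in SD, so day length, age and hour of the clock cannot be told apart.

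Some of the genes described above had like effects in both day lengths and others did not. HOL2, GLR2.7, FRUCT5, SEP4, DML2 and ESM1 had log2 fold changes of -3.50, -3.46, -2.59, -3.86, -2.73 and -2.18 in SD, and none of these differed between day lengths. IAA29 had 2.63 in LD and 3.24 in SD, also without a called difference (adjusted p = 0.13). Of 3 other auxin genes chosen for their difference, IAA1 had 1.27 in LD and 0.29 in SD (difference 0.98, adjusted p = 0.0035), IAA2 had 0.77 and -0.11 (0.88, adjusted p = 1.3e-05), and GH3.3 had 1.99 and 0.34 (1.65, adjusted p = 0.035, lost without wild-type SD repeat 2 at adjusted p = 0.25). Of the 108 auxin genes, 19 had a called difference (17.6%, against 7.27%). The share was larger in other lists, among them root markers (34.8%), light and shade genes (34.5%), clock genes (28.0%), glucosinolate genes (25.6%) and nitrogen genes (25.0%), and it was 18.9% in jasmonate genes and 0% in photosynthesis genes. BT2 had 2.40 in LD and -0.22 in SD, where its level was 730.3 and 966 reads in the labelled mutant and 960.3 and 1001 in wild type (difference 2.62, adjusted p = 0.0011).

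Among the genes with the largest differences, CAF1a, a deadenylase induced by stress, had 621 and 413 reads in the labelled mutant and 1183 and 1799 in wild type in LD (log2 fold change -1.52), but 718 and 603, against 172 and 244, in SD (1.68). This gave a difference of -3.20 (adjusted p = 1.4e-05). SDI1, a marker of sulfur deficiency, the kinase gene CPK19 and the transporter gene UMAMIT14 had differences of -2.89, -2.83 and -2.63, each called higher in SD and not called in LD. At the other end, HSP23.6-MITO, ANAC055, CYP76C2 and RD26 had differences of 4.20, 3.58, 3.33 and 3.01, and none was called in LD. HSP23.6-MITO was at 2.08 reads or less in all 4 LD libraries. The differences of HSP23.6-MITO, CYP76C2 and RD26 were lost without single libraries, with adjusted p up to 0.052 without SD repeat 1 of the labelled mutant, 0.27 without wild-type SD repeat 2 and 0.22 without LD repeat 1 of the labelled mutant. The LD repeats of the labelled mutant disagreed in ANAC055, at 98.1 and 20.5 reads, as they did in RD26.

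**Figure D5:**
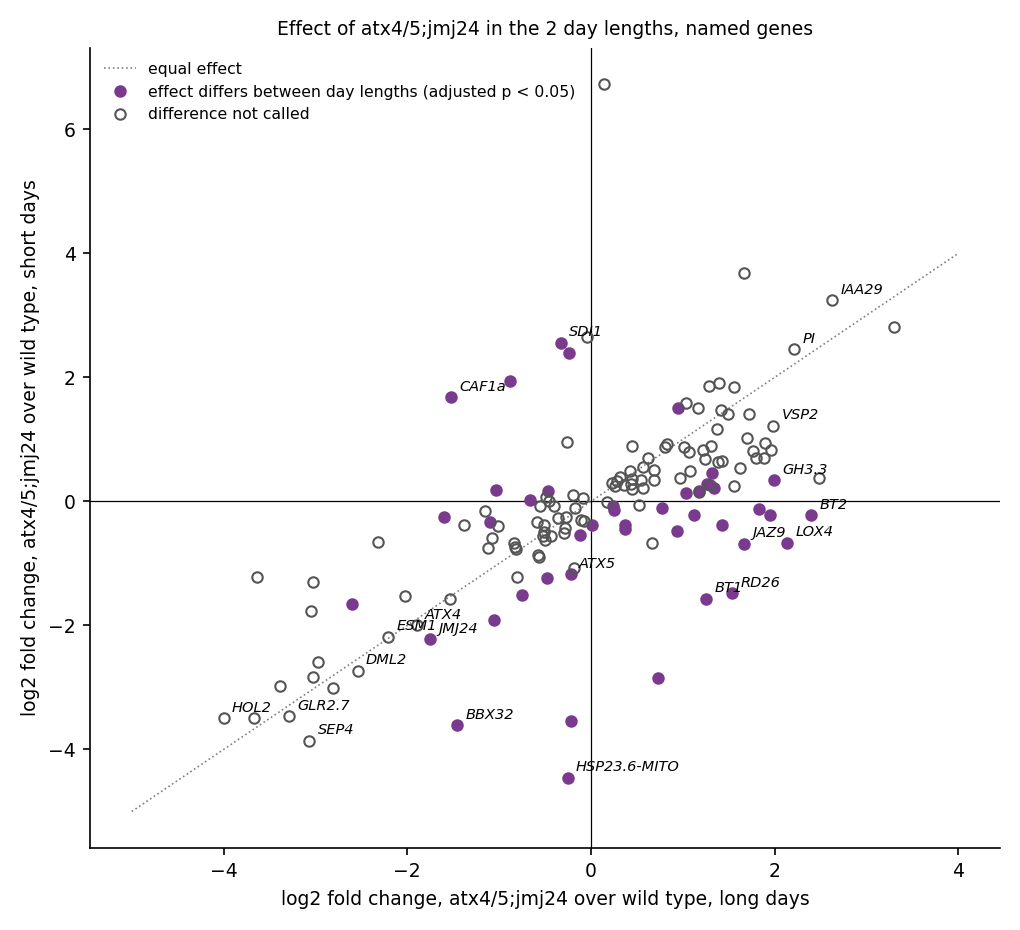
log2 fold change of the labelled mutant over wild type in LD (x axis) and SD (y axis) for the genes named in the text, with filled points where the difference between the effects was called. HOL2, GLR2.7, SEP4 and DML2 lie near the line of equal effect, and CAF1a, BT2 and BT1 lie away from it.

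Against ino80 in LD, 6089 genes were called (23.7%), 3343 higher (13.0%) and 2746 lower (10.7%) in the labelled mutant. With equal library totals the counts were 2240 and 4272, and with quantile normalization 3006 and 3089. Photosynthesis genes were higher than in ino80 in 38 of 45 and lower in 1, light and shade genes higher in 27 of 58 and lower in 1, and auxin genes higher in 47 of 108 and lower in 8. ATHB-2 had 3795 and 4394 reads in the labelled mutant, against 1000.0 and 954 in ino80 (log2 difference 2.06, adjusted p = 1.0e-09). ATX4 had 90.5 and 83.0 in the labelled mutant, 735 and 704 in ino80 and 342 and 311 in wild type. In ino80 it was above wild type, with a log2 fold change of 1.14 (limma, adjusted p = 1.9e-09). A difference from ino80 therefore holds the effects of both lines. The 4 genes furthest below ino80 were BGLU19, M17, BSU1 and SYN1, with log2 differences of -4.99, -4.47, -4.31 and -4.17. Without repeat 2 of the labelled mutant, BGLU19 was at -2.85 and M17 at -3.46, and neither was called (adjusted p = 0.40 and 0.18). SYN1, a meiotic cohesin subunit, had 11.6 and 9.48 reads in the labelled mutant and 213 and 198 in ino80. Furthest above were BHLH101 (5.40), HDA2 (5.00), CNGC18 (4.57) and ACR1 (3.81). HDA2, a histone deacetylase gene, had 137 and 144 reads in the labelled mutant, against 3.95 and 2.94 in ino80, and ACR1, an ACT domain protein gene, 359.7 and 309.9, against 29.7 and 17.6. The DNA damage gene GMI1 had 107 and 97.7 reads in the labelled mutant, 847 and 771 in ino80 and 132 and 158 in wild type. In ino80 it was above wild type by a log2 fold change of 2.48.

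Some of the lower genes were also below wild type in the other mutant lines. HOL2 had 17.9 and 18.9 reads in the labelled mutant, 38.3 and 32.7 in nfrkb1/2/3, 68.2 and 48.1 in ino80 and 315 and 303 in wild type. Its level was below nfrkb1/2/3 by a log2 difference of -0.91 (adjusted p = 0.0013) and below ino80 by -1.59 (adjusted p = 1.1e-06). DML2 followed the same order, with 46.3 and 46.2 in the labelled mutant, 66.7 and 95.6 in nfrkb1/2/3, 94.9 and 96.3 in ino80 and 273 and 275 in wild type, where nfrkb1/2/3 and ino80 overlapped. ESM1 was at 5516 and 4540.3 reads in the labelled mutant, 5722 and 4384 in ino80 and 22317 and 23914 in wild type. Its log2 difference from ino80 was -0.00 (SE 0.179) and was not called. SEP4 had 13.7 and 17.8 in the labelled mutant, 25.6 and 18.2 in nfrkb1/2/3, 15.8 and 30.5 in ino80 and 124 and 155 in wild type, and its differences from nfrkb1/2/3 and ino80 were not called (adjusted p = 0.32 and 0.25). DML3 was higher than in ino80, with 67.6 and 101 reads in the labelled mutant, against 31.6 and 23.5 in ino80 (log2 difference 1.56, adjusted p = 1.5e-05). DOG1 was below both other lines, at 11.7 and 17.8 in the labelled mutant, 76.6 and 74.2 in nfrkb1/2/3 and 82.0 and 79.5 in ino80. Against nfrkb1/2/3 as a whole, 4140 genes were called (16.1%), 2302 higher (8.98%) and 1838 lower (7.17%). With equal library totals the counts were 1292 and 3160, and with quantile normalization 1944 and 2006.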

How the data were processed

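RNA was measured in whole seedlings by single-end 50-bp RNA-seq, per the labels' protocols. The deposited values are a signal per gene, taken as normalized by the authors to a common library size, and not whole counts, so no count model was used. HISAT2 2.2.0, the TAIR10 build and edgeR (version not stated) are named in the submitters' processing notes. The strand setting of the counting is not given in the sources used here. The 2 tables were normalized separately, and every test stayed within 1 table.

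Values were tested as log2(value + 1) with limma 3.58.1 in R 4.3.3, with a mean-variance trend and 1 mean per group. Genes were kept where 2 or more libraries reached a value of 1, which left 25638, and p-values were adjusted by Benjamini-Hochberg over all of them. Because of the added 1, a fold change understates the change of low genes. All 36 libraries of the table were fitted together (18 residual degrees of freedom), since 2 libraries a side give little information on the spread. The comparisons with wild type in LD and with ino80 and nfrkb1/2/3 share the labelled mutant's LD libraries.

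The leading genes were the 12 with the largest fold change in each direction among called genes with a symbol, a mean of at least 30 in the higher group and a call that held without each of the 4 libraries with a fold that moved by under 1.5 times. Of each list, up to 4 called members per direction were named, plus members whose role is described, and 4 genes per direction for the day length and ino80 comparisons. Lists, members and tests were chosen with earlier results of these data known. Alternatives covered the pseudocount, the filter, the scaling, the libraries fitted, the weights, a replicate block and each library left out. Promoter windows came from RefSeq's TAIR10.1, in which all 32548 loci of the table had an entry.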

Additional observations from a re-analysis of the deposited data

Results flagged for a closer look

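Of 152 genes named here, 43 had an effect of the labelled mutant over wild type that differed between LD and SD by limma's test of the difference itself, with adjusted p from 1.3e-05 to 0.048. Each value is the LD effect minus the SD effect on the log2 scale, so a positive value means that the mutant stood higher against wild type in LD. The SD seedlings were older, and part of the genes were named because they differ, so the share of 43 is no estimate for other genes.

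Of the auxin genes, the effect was higher in LD in GH3.3 (1.65), SAUR29 (1.12), IAA1 (0.98), IAA19 (0.91), IAA2 (0.88) and AUX1 (0.39). Of the jasmonate genes, it was higher in LD in LOX4 (2.80), JAZ9 (2.35), LOX3 (1.81), JAZ6 (0.86) and COI1 (0.42), of which LOX4, LOX3 and JAZ9 were far higher in repeat 1 than in repeat 2 of the labelled mutant in LD. Of light and flowering genes, the difference was above 0 in BBX32 (2.15), COL2 (0.85), PHYA (0.81), HY5 (0.77), BBX25 (0.76) and PHYB (0.75), with a lower value in AGL42 (-1.22). PHYA and PHYB were higher than in wild type in LD, by 0.37 each, and at -0.44 and -0.38 in SD.

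Of the targeted genes, ATX5 (0.96) and JMJ24 (0.47) stood less far below wild type in LD. In the second SD set, ATX5 was not below wild type (log2 fold change 0.28). Of chromatin genes, NRPD1 (-0.56) rose in both day lengths and more in SD, and the others were DME (0.38) and ARP6 (0.32). Nutrient and sugar genes went both ways, with BT1 (2.82), BT2 (2.62), TPS8 (1.41) and TPS11 (1.35) above 0 and SDI1 (-2.89), UMAMIT14 (-2.63), NAS3 (-1.35) and ANR1 (-0.76) below it. Stress and defence genes above 0 were HSP23.6-MITO (4.20), ANAC055 (3.58), CYP76C2 (3.33), RD26 (3.01), WRKY53 (2.17), CRK14 (1.95) and MYB51 (1.01), and those below it were CAF1a (-3.20), CPK19 (-2.83), CYP71B24 (-0.94) and MYB28 (-0.64). The cell cycle inhibitor KRP1 had -0.69. The LD and SD effects had opposite signs in 24 of the 43 genes, among them CAF1a, BT1, RD26 and ANAC055. The difference was lost without at least 1 of the 8 libraries in 23 of the 43, with the highest adjusted p in CYP76C2, at 0.27 without wild-type SD repeat 2.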

How the results depend on the processing

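Counts of called genes depended mainly on which libraries gave the spread. A fit of only the groups compared called 0 genes against wild type in LD, 671 for the difference between LD and SD, 2029 against ino80 and 2 against nfrkb1/2/3, with 5325, 5295, 7195 and 5283 at an unadjusted p under 0.05. Leaving out 1 library gave 1793 to 2416 calls against wild type in LD, 880 to 1694 for the difference between LD and SD, 3952 to 4576 against ino80 and 2042 to 3096 against nfrkb1/2/3. The lowest of these came without wild-type LD repeat 1, wild-type SD repeat 2, ino80 repeat 2 and nfrkb1/2/3 repeat 2. Without repeat 1 or 2 of the labelled mutant, 2030 and 1887 of the 3409 LD calls were called again, and without wild-type repeat 1 or 2, 1681 and 1963. The other settings, which were equal totals, quantile normalization, pseudocounts of 0.5 and 5, no filter, a minimum of 10 and voom weights, gave 2934 to 3753 LD calls. Equal totals turned the balance of directions round in all 4 comparisons, with 2252 higher and 1501 lower against wild type in LD, 662 and 1070 for the difference between LD and SD, 2240 and 4272 against ino80 and 1292 and 3160 against nfrkb1/2/3. It moved the median of all genes by 0.038, -0.073, -0.078 and -0.078 on the log2 scale.

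Of the 138 called results on single genes, none changed direction in 1954 refits, and 315 of these refits missed the threshold, 127 of them in the fit of only the groups compared. The 138 results had been called in the main fit and the refits share its libraries, so a change of direction was unlikely from the start. Among genes that were not called, the values without single libraries ran from -0.308 to 0.0834 in ATX3, -0.0615 to 0.0758 in DME, -0.401 to 0.0128 in SOC1, -0.616 to 3.01 in PUB19, -0.625 to 0.105 in GLR2.8 and -0.895 to 0.00848 in LAC2. DME was at -0.00203 with quantile normalization. With quantile normalization, 3 photosynthesis genes were called, against 12.

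Whether repeat numbers pair the samples could not be settled, since 2 libraries a group give a single repeat difference per group to compare. The deviations of same-numbered libraries of the labelled mutant and wild type had a correlation across 18375 genes of -0.11 in LD and -0.02 in SD, and those of the labelled mutant had -0.35 with ino80 and 0.43 with nfrkb1/2/3. With the replicate block, 3488 genes were called against wild type in LD, 1912 for the difference between LD and SD, 6171 against ino80 and 4243 against nfrkb1/2/3. With the LD numbers crossed, a setting chosen after seeing the data, the block gave 3513 and 1959 calls for the LD comparison and for the difference. At this depth, genes under 10 reads in both groups gave 211 of the LD calls, and those values carry the most counting error. Leaving out genes with a mean under 10, also chosen after seeing the data, gave 38 higher and 1 lower of 102 auxin genes, 20 and 1 of 50 jasmonate genes and 12 and 9 of 57 light and shade genes.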

Other observations

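Stress and drought genes were among those with the widest gaps between the repeats of the labelled mutant. SAG113, a phosphatase gene of senescing leaves, had 1116 and 95.6 reads in the labelled mutant, against 151 and 87.6 in wild type, and HAI2, a phosphatase gene induced by abscisic acid, had 523 and 74.1, against 90.1 and 87.8. ANAC019, a NAC factor of the same response as RD26, had 146 and 22.9 in the labelled mutant and 27.3 and 17.8 in wild type. In each of these genes repeat 2 lay near wild type and repeat 1 far above it. The gap in SAG113 was not particular to the labelled mutant. In LD it had 1165 and 46.6 reads in nfrkb1/2/3, and 60.1 and 210.6 in ino80. ORA47, a factor that activates jasmonate synthesis genes, had 524 and 107 reads in the labelled mutant, against 137 and 198 in wild type, so repeat 2 lay below both wild-type libraries.

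Fewer genes stood out in repeat 2. MRN1, a triterpene synthase gene, had 31.5 and 180.4 reads in the labelled mutant and 110.0 and 53.5 in wild type. LRX3, a cell wall protein gene, had 2637 and 7218 in the labelled mutant, against 2599 and 3267 in wild type, and HAT1, a homeodomain gene of the shade and brassinosteroid response, 964 and 2449.7, against 1118 and 1271. ARR6, a cytokinin response regulator, had 152 and 387, against 174 and 132. These genes were chosen for their difference between the repeats, and no test was made of them.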
